A study of Mus musculus with 3 samples.

Results

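The genes described here are 40 markers of blood-derived immune cells: Ptprc, which encodes the common leukocyte antigen CD45, 11 genes of T cells, 6 of B cells, 4 of natural killer (NK) and cytotoxic cells, 4 of neutrophils, 8 of monocytes and macrophages, 4 of alveolar macrophages, Flt3 of dendritic and progenitor cells, and Cpa3 of mast cells. They were taken by symbol from the platform annotation, and all 40 were found, each on 1 probe set, among 22180 named genes. RNA was measured once on each of 3 mouse arrays. FULA 1 is a mouse lung adenocarcinoma line, grown as a pure culture in DMEM with fetal bovine serum. The urethane lung came from FVB mice, an inbred strain prone to lung tumours, 1 week after an intraperitoneal injection of urethane (ethyl carbamate), a carcinogen that gives lung adenomas in mice. The saline lung came from FVB mice injected with saline. The sources used here do not give the number, age or sex of the mice, the time of the saline lung, or whether blood was flushed out. With 1 array per group there was no replicate spread to set a difference against and no test, and every comparison below is between these arrays rather than between conditions.

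Leukocytes reach the lung in its blood, patrol its capillaries and settle in its tissue. Alveolar macrophages live in the air spaces, where they take up surfactant and inhaled particles. Neutrophils and monocytes are held in large numbers in lung capillaries. T, B and NK cells pass through blood and lymphoid tissue, and each type is known by surface receptors and the adaptors that signal from them. A tumour line grown on its own is no source of these cells, so its array holds what a marker probe set reads as background together with any expression by the tumour cells. In an extract of whole lung, fewer cells of a type and less RNA per cell cannot be told apart.

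The 3 deposited columns of log2 values were on different scales, with medians of 4.96 on the FULA 1 array, 1.22 on the urethane lung array and 0.08 on the saline lung array. Values were therefore quantile-normalized, and each probe set was also given its percentile rank among the 41345 probe sets of its own array, which no such rescaling changes. The background mark of an array was the 95th percentile of 1105 olfactory receptor genes, whose products serve smell. It lay at rank 46.5 in FULA 1 cells, 59.3 in urethane lung and 59.7 in saline lung, and at normalized log2 values of 1.96, 2.44 and 2.46. A value below the mark was held at the mark before a difference was taken, so such a fold is a lower bound on this normalized scale only. The mark itself lay lower in FULA 1 cells than in either lung, and that gap was not taken out of the differences. Where neither array passed its mark, no size is given. The same was done where FULA 1 cells alone passed their mark, with a value under the higher mark of the lung. A probe set's rank also depends on how well it binds its target, so ranks are compared between arrays and not between genes. Markers of epithelium reached the mark on all 3 arrays (5 of 5 genes on each), and Ptprc lay above it in the lungs alone.

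In the lungs, 25 of the 40 genes lay above the mark after urethane and 25 after saline, against 10 in FULA 1 cells. Among all named genes the share above the mark was 58.2% in FULA 1 cells, 48.9% in urethane lung and 49.5% in saline lung. The median percentile rank of the 40 genes was 36.8 in FULA 1 cells, 67.0 in urethane lung and 71.2 in saline lung, beside 54.8, 57.8 and 58.7 for all named genes. A total of 23 genes lay above the mark in both lungs. Of these 23, 16 (69.6%) lay below it in FULA 1 cells, which was so for 10.5% of all genes above the mark in both lungs (1030 of 9787). The other 7 lay above it on all 3 arrays: Lat, Cd5, Cd6, Cd68, Lyz2, Chil3 and Fabp4.

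**Figure D1:**
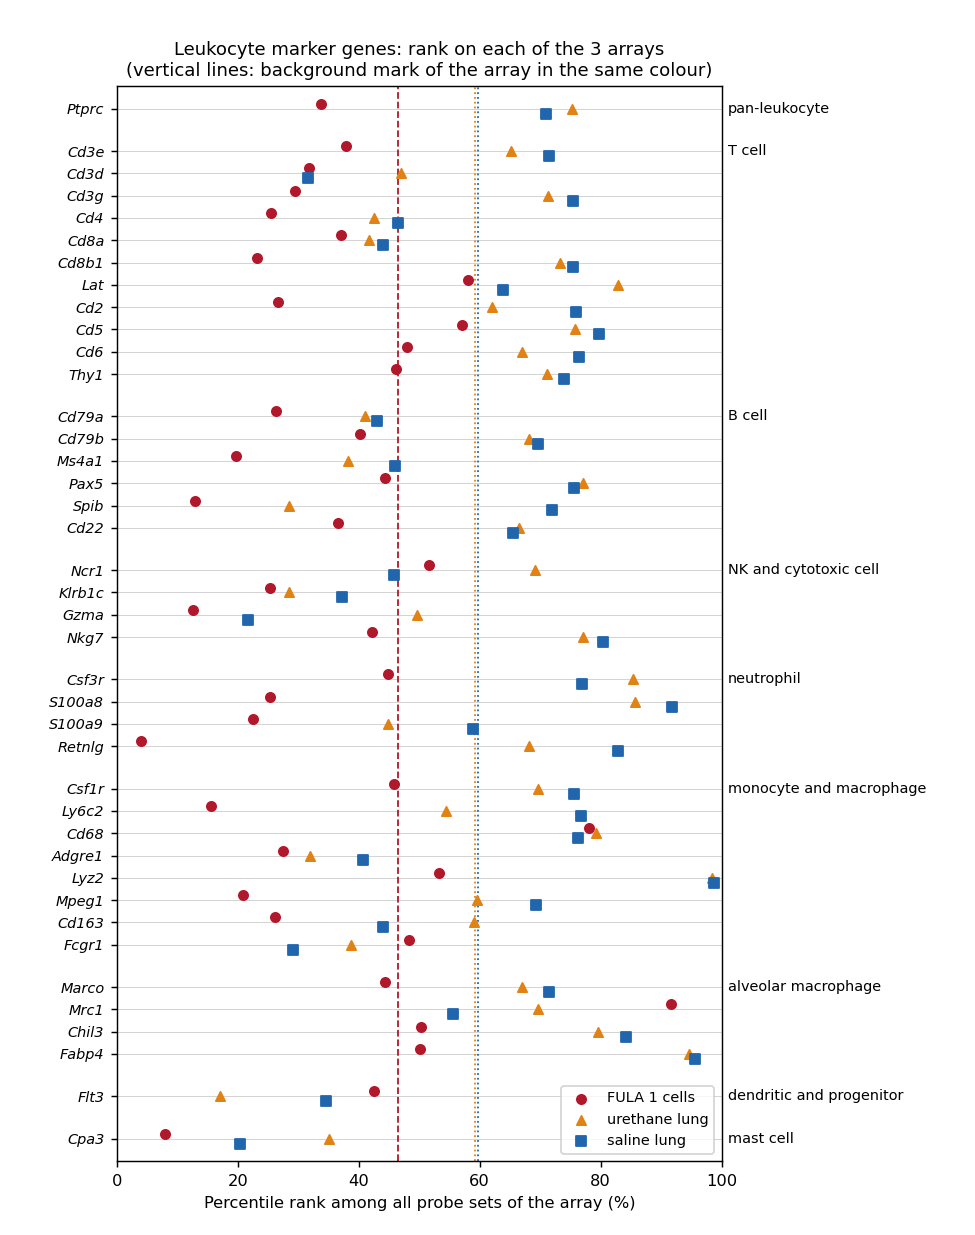
Percentile rank (%) of each of the 40 leukocyte marker genes among all probe sets of its array, by cell type, for FULA 1 cells, urethane lung and saline lung, with the background mark of each array as a vertical line of the same colour. Most FULA 1 points sit left of both lung points, and Mrc1, at 91.7 in FULA 1 cells, sits to the right of both.

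The upstream DNA of 4 genes is shown because 2 pairs of results turn on them: S100a8 and S100a9, partners that read differently on the lung arrays, and Lyz2 and Mrc1, the macrophage genes with the lowest and the highest FULA 1 values relative to lung. Each run is the 250 bases before the transcription start, 5′ to 3′ on the strand of the gene, from RefSeq on GRCm38.p6: chr3:90668821-90669070 (plus strand) for S100a8, chr3:90695722-90695971 (minus) for S100a9, chr10:117282273-117282522 (minus) for Lyz2 and chr2:14229164-14229413 (plus) for Mrc1. Capitals mark the PU box, GAGGAA or its reverse complement TTCCTC, the core bound by PU.1, a transcription factor that drives myeloid and B cell genes.
S100a8: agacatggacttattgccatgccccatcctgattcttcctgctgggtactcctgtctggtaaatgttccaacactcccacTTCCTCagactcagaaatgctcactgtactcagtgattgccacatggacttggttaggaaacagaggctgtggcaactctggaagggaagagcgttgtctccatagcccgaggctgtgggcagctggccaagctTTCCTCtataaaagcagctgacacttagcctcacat
S100a9: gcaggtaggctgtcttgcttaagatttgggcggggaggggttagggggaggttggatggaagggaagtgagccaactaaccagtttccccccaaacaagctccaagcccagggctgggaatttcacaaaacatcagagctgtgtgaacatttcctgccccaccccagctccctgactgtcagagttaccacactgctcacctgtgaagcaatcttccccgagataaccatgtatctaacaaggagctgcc
Lyz2: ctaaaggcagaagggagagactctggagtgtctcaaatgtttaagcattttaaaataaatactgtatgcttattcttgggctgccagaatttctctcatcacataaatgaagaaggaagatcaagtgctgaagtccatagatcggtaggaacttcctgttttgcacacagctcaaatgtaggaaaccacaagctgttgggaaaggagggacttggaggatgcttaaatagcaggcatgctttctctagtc
Mrc1: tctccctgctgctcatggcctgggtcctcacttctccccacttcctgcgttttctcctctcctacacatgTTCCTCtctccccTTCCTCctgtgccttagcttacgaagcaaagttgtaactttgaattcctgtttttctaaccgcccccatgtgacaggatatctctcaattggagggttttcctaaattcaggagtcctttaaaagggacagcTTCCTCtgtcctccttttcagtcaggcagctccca
The window held 2 PU boxes in S100a8, 3 in Mrc1 and 0 in S100a9 and Lyz2. RefSeq windows were at hand for 30 of the 40 genes, and 15 of the 30 held at least 1 PU box on either strand, against 25.9% of 27025 genes with windows of the same length. The box was found in lymphoid genes (Cd3d, Cd3e, Cd5, Cd79a, Cd8a, Klrb1c and Lat), in Ptprc, and in myeloid genes (Cd68, Csf3r, Fcgr1, Ly6c2, Marco, Mrc1 and S100a8). It was 1 of 8 motifs searched on both strands. Longer or overlapping forms of the same core were in fewer windows. AGGAAGT was in 11 of the 30 (36.7%, against 8.8% of all genes), AGAGGAAG in 6 (20% against 4.27%) and GAGGAAGT in 3 (10% against 2.79%). Of the 4 genes shown, Lyz2, Mrc1 and S100a8 held AGGAAGT or its reverse complement, and S100a9 did not. Lyz2 thus had an overlapping form of the core although it had no PU box. CAGGTG was in 8 (26.7% against 19.4%), TGTGGT in 8 (26.7% against 15.9%), TATAAA in 3 (10% against 14.3%) and GGGAAGTG in 1 (3.33% against 2.3%). These matches describe the letters in the window and no binding was measured here.

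Ptprc, the phosphatase carried by nearly all leukocytes, had normalized log2 values of 1.62 in FULA 1 cells, 3.35 in urethane lung and 3.06 in saline lung. Its ranks were 33.7, 75.3 and 71.0 in the same order of arrays. The gene was thus below background in the line and above it in both lungs, at least 2.61-fold lower in FULA 1 cells than in urethane lung and at least 2.14-fold lower than in saline lung. With the mark at the 99th percentile of the receptors it was below background on every array, and with the arrays brought to the same median it differed from saline lung by -0.80, under 2-fold. The 12 companion genes listed for leukocytes in general also had lower values in FULA 1 cells than in either lung. Between the lungs, 8 of the 12 were lower in urethane lung, unlike Ptprc. Of these 12 genes, 6 lay above the mark in FULA 1 cells, 11 in urethane lung and 12 in saline lung. Against urethane lung, 11 of the 11 with an array above its mark were at least 2-fold lower in FULA 1 cells. Against saline lung it was 11 of 12. Among all named genes with an array above its mark, 15.2% and 17.1% were lower by that size. Lcp1, which bundles actin in leukocytes, ranked 73.6 in FULA 1 cells, 96.8 in urethane lung and 97.1 in saline lung, and Rac2, a GTPase of blood cells, ranked 60.4, 92.1 and 96.7.

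The T cell genes divided into some that were above background in lung and some that were not. The T cell receptor is carried to the surface by CD3 chains, and Cd3e and Cd3g, which encode 2 of them, lay above the mark in both lungs, while Cd3d, which encodes another, lay below it on all 3 arrays. Cd3e had normalized values of 1.72 in FULA 1 cells, 2.73 in urethane lung and 3.09 in saline lung. Cd3g had 1.52 in FULA 1 cells, 3.08 in urethane lung and 3.36 in saline lung. Both were highest in saline lung and below background in the line, whereas Cd3d read 1.58, 1.98 and 1.58 with no array above its mark. The CD8 co-receptor split in the same way. Cd8b1, its beta chain, ranked 23.1 in FULA 1 cells, 73.2 in urethane lung and 75.5 in saline lung, and Cd8a, its alpha chain, ranked 37.0, 41.7 and 44.0, below the mark throughout. Cd4, the co-receptor of helper T cells, also stayed below it, at 25.5, 42.6 and 46.4.

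The other 5 T cell genes all lay above the mark in both lungs. Cd5, a receptor that restrains antigen receptor signals, ranked 57.1 in FULA 1 cells, 75.8 in urethane lung and 79.8 in saline lung. Cd6, a related receptor, ranked 48.0, 67.0 and 76.4. Both were higher in either lung than in FULA 1 cells, although the line too lay above its own mark. Cd2, an adhesion receptor, ranked 26.6 in FULA 1 cells, 62.0 in urethane lung and 76.0 in saline lung. Thy1, a surface protein of mouse T cells that some stromal cells also carry, ranked 46.2, 71.2 and 73.9, just under the mark in the line. Lat, the adaptor that links the T cell receptor to its downstream enzymes, ranked 58.1 in FULA 1 cells, 82.9 in urethane lung and 63.9 in saline lung. It was the T cell gene with the widest gap between the lungs.

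Of the 11 T cell genes, 7 were at least 2-fold lower in FULA 1 cells than in saline lung (Cd3e, Cd3g, Cd8b1, Cd2, Cd5, Cd6 and Thy1) and 5 than in urethane lung (Cd3g, Cd8b1, Lat, Cd5 and Thy1). The sizes ran up to at least 2.72-fold for Cd2 against saline lung and to 3.08-fold for Lat against urethane lung. Lat was 1.21-fold lower in FULA 1 cells than in saline lung. Among 12 further genes of T cell receptor signalling, 1 lay above the mark in FULA 1 cells, 7 in urethane lung and 6 in saline lung. There, 4 of the 6 with an array above its mark were at least 2-fold lower in FULA 1 cells than in saline lung. Against urethane lung it was 2 of 7. Lef1, a transcription factor of T cells and of Wnt signalling, ranked 53.8 in FULA 1 cells and 87.2 in each lung. Lcp2, the adaptor SLP-76 that works with Lat, ranked 31.7, 89.3 and 89.2.

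**Figure D2:**
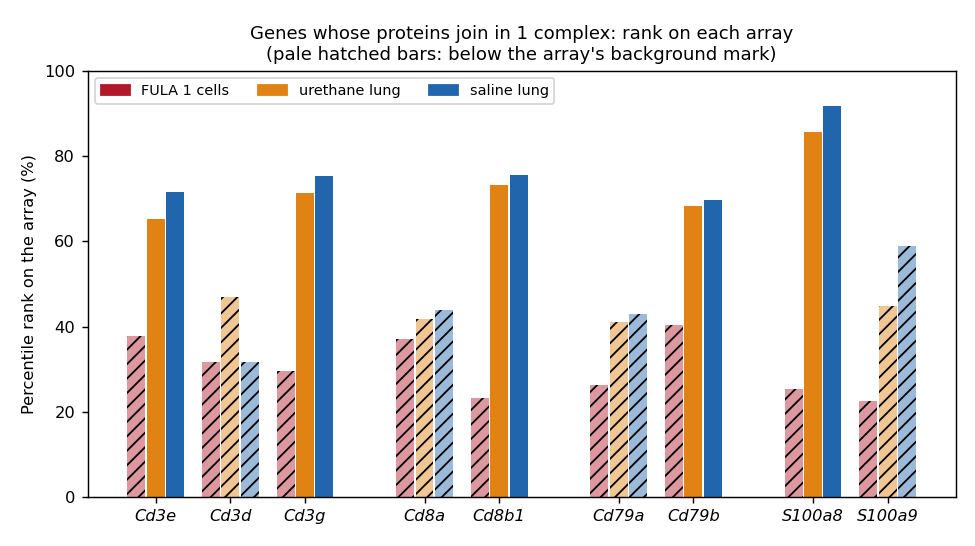
Percentile rank (%) on each array of genes whose proteins join in 1 complex, as bars for FULA 1 cells, urethane lung and saline lung, with pale hatched bars for values below the background mark. Cd3e and Cd3g, Cd8b1, Cd79b and S100a8 have solid bars in both lungs, and their partners Cd3d, Cd8a, Cd79a and S100a9 have none.

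B cell genes showed the same split between partners. CD79A and CD79B form the signalling pair of the B cell receptor, and Cd79b lay above the mark in both lungs while Cd79a lay below it on all arrays. Cd79b ranked 40.3 in FULA 1 cells, 68.2 in urethane lung and 69.7 in saline lung, and Cd79a ranked 26.3, 41.1 and 43.0. Ms4a1, which encodes CD20, also stayed below the mark, at 19.8, 38.3 and 46.1. The readable B cell genes beside Cd79b were Pax5, Cd22 and, in saline lung, Spib. Pax5, the transcription factor that fixes B cell identity, ranked 44.4 in FULA 1 cells, 77.1 in urethane lung and 75.6 in saline lung. Cd22, an inhibitory co-receptor, ranked 36.5, 66.5 and 65.6. Both had nearly the same rank in the lungs and were below background in the line. The urethane lung values of Pax5 and Cd79b were shared by 339 and 559 probe sets, so they are coarse.

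Spib, a relative of PU.1 found in B cells, ranked 12.9 in FULA 1 cells, 28.5 in urethane lung and 72.0 in saline lung. It was the B cell gene that 1 lung array had above the mark and the other had below it. Against saline lung, 3 of the 6 B cell genes were at least 2-fold lower in FULA 1 cells: Pax5 by at least 2.66-fold, Spib by at least 2.23-fold and Cd79b by at least 2.02-fold. Against urethane lung it was Pax5, at least 2.89-fold lower. Among 11 further B cell genes, 3 of the 6 with an array above its mark were at least 2-fold lower in FULA 1 cells than in saline lung. Against urethane lung it was 2 of 6. Cd37, a tetraspanin of B cells, ranked 52.2 in FULA 1 cells, 84.9 in urethane lung and 76.7 in saline lung, and Vpreb3, a gene of immature B cells, ranked 24.5, 73.2 and 76.0.

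Of the NK and cytotoxic genes, Nkg7 was the one above the mark in both lungs. Nkg7, a granule membrane protein of cytotoxic cells, had normalized values of 1.85 in FULA 1 cells, 3.49 in urethane lung and 3.76 in saline lung, and was at least 2.89-fold lower in the line than in urethane lung and at least 3.49-fold lower than in saline lung. Ncr1, the activating receptor NKp46, ranked 51.6 in FULA 1 cells, 69.2 in urethane lung and 45.8 in saline lung. The saline lung array thus had Ncr1 below background, and the other arrays had it above. Klrb1c, which encodes NK1.1 in some strains and belongs to a family of similar genes, ranked 25.3, 28.4 and 37.2. Gzma, the granule protease granzyme A, ranked 12.6, 49.7 and 21.6. Neither of those could be read on any array. Among 10 companion genes, 3 of the 4 with an array above its mark were at least 2-fold lower in FULA 1 cells than in saline lung. Against urethane lung it was 2 of 4. The 2 with the highest mean rank are given. Ccl5, a chemokine of cytotoxic and memory T cells, ranked 41.0 in FULA 1 cells, 92.6 in urethane lung and 95.7 in saline lung. Tbx21, the transcription factor T-bet, ranked 52.5, 72.5 and 84.3.

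The neutrophil genes gave some of the widest gaps between the line and the lungs. S100a8, an abundant calcium-binding protein of neutrophils, had normalized values of 1.41 in FULA 1 cells, 4.29 in urethane lung and 5.26 in saline lung. It was at least 5.03-fold lower in FULA 1 cells than in urethane lung and at least 9.86-fold lower than in saline lung. Its partner S100a9, with which it forms calprotectin, had 1.32, 1.92 and 2.43 and was below the mark on every array, narrowly in saline lung, where it ranked 58.9. Csf3r, the receptor for granulocyte colony-stimulating factor, had 1.92 in FULA 1 cells, 4.26 in urethane lung and 3.49 in saline lung. It was below its mark in the line and higher in urethane than in saline lung. Retnlg, a resistin-like protein of mouse neutrophils, had 0.58 in FULA 1 cells, 2.89 in urethane lung and 4.004 in saline lung. It was below the mark in the line, at rank 3.92, and higher in saline than in urethane lung.

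Against saline lung, Csf3r, S100a8 and Retnlg were all at least 2-fold lower in FULA 1 cells, and against urethane lung Csf3r and S100a8 were. Retnlg was at least 4.12-fold lower than in saline lung and at least 1.91-fold lower than in urethane lung. Among 10 further neutrophil genes, 2 of the 4 with an array above its mark were lower by that size in FULA 1 cells than in saline lung. Against urethane lung it was 3 of 4. Cxcr2, the receptor that draws neutrophils to chemokines, ranked 55.3 in FULA 1 cells, 83.7 in urethane lung and 78.1 in saline lung. S100a11, which many epithelial cells also make, was at least 2-fold higher in FULA 1 cells and ranked 99.4, 97.8 and 98.6.

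Among monocyte and macrophage genes, Lyz2 had the largest gap of the 40 genes. Lyz2 encodes lysozyme M of macrophages, monocytes and neutrophils, and alveolar type II cells make it too. Its normalized values were 2.20 in FULA 1 cells, 7.70 in urethane lung and 7.996 in saline lung, which is 45.1-fold lower in FULA 1 cells than in urethane lung and 55.4-fold lower than in saline lung. Both lungs placed it above rank 98 and the line at 53.3, a little above its mark. Lyz2 has a near-identical neighbour, Lyz1, so the probe set may read both.

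Csf1r, the receptor for the growth factor of macrophages, had normalized values of 1.94 in FULA 1 cells, 2.97 in urethane lung and 3.37 in saline lung. It sat just under the mark in the line and was at least 2.01-fold lower there than in urethane lung and at least 2.66-fold lower than in saline lung. Ly6c2, a surface protein of inflammatory monocytes with a close copy in Ly6c1, ranked 15.5 in FULA 1 cells, 54.4 in urethane lung and 76.8 in saline lung. Mpeg1, a pore-forming protein of macrophages, ranked 20.9, 59.6 and 69.3. Urethane lung thus had Ly6c2 below its mark and Mpeg1 only just above it, and saline lung had both above. Mpeg1 was at least 1.41-fold lower in FULA 1 cells than in urethane lung and at least 1.98-fold lower than in saline lung, so it missed the 2-fold line in both.

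Cd68 was the marker whose level in the line matched the lungs most closely among those above the mark on all 3 arrays. Cd68, a lysosomal membrane protein abundant in macrophages and present in other cells, had 3.56 in FULA 1 cells, 3.66 in urethane lung and 3.43 in saline lung. Its folds were 1.07 lower than urethane lung and 1.09 higher than saline lung. Adgre1, which encodes the macrophage antigen F4/80, ranked 27.5 in FULA 1 cells, 31.9 in urethane lung and 40.7 in saline lung. Cd163, a scavenger receptor, ranked 26.2, 59.1 and 44.0. Neither passed the mark on any array, Cd163 missing it narrowly in urethane lung. Fcgr1, a high-affinity antibody receptor, ranked 48.4 in FULA 1 cells, 38.7 in urethane lung and 29.1 in saline lung. The line was thus the array that had Fcgr1 above its mark, by a small margin.

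Among 11 further monocyte and macrophage genes, 6 had an array above its mark in each comparison. At least 2-fold lower in FULA 1 cells were 3 of them against saline lung and 3 against urethane lung. In each comparison 1 was higher. That gene, named after its values were seen, was Cd14, a co-receptor for bacterial lipopolysaccharide that some epithelial cells also carry. It ranked 89.3 in FULA 1 cells, 68.2 in urethane lung and 71.1 in saline lung. Plac8 hardly differed, at 82.9, 81.7 and 83.5.

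Alveolar macrophage genes went in both directions. Fabp4, a fatty acid carrier of alveolar macrophages that lung capillary endothelium also makes, had normalized values of 2.09 in FULA 1 cells, 5.93 in urethane lung and 6.26 in saline lung, which is 14.3-fold lower in FULA 1 cells than in urethane lung and 17.9-fold lower than in saline lung. Chil3, the chitinase-like protein Ym1 with a close copy in Chil4, had 2.10, 3.69 and 4.13, or 3.02-fold lower in the line than in urethane lung and 4.09-fold lower than in saline lung. Both had values in the line just above its mark. Marco, a scavenger receptor for particles, had 1.91 in FULA 1 cells, 2.84 in urethane lung and 3.09 in saline lung, and was at least 1.84-fold lower in the line than in urethane lung and at least 2.19-fold lower than in saline lung. Among 7 further alveolar macrophage genes, 5 had an array above its mark against saline lung and 6 against urethane lung. At least 2-fold lower in FULA 1 cells were 1 and 2 of them, and 1 was higher in each comparison. Car4 and Plet1 had the highest mean rank over the 3 arrays and are given by that rule. Car4, a carbonic anhydrase of lung capillaries as well, ranked 45.6 in FULA 1 cells, 95.6 in urethane lung and 97.2 in saline lung, while Plet1, also an epithelial gene, ranked 91.1, 92.6 and 90.7.

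Mrc1 was the exception among the 40. Mrc1, the mannose receptor of macrophages that some endothelial cells also carry, had normalized values of 5.24 in FULA 1 cells, 2.97 in urethane lung and 2.28 in saline lung, and ranked 91.7, 69.6 and 55.5. It was 4.82-fold higher in FULA 1 cells than in urethane lung and at least 6.83-fold higher than in saline lung, where it lay below the mark. It was the 1 gene of the 40 at least 2-fold higher in the line, in each comparison. Of the 12 genes of monocytes, macrophages and alveolar macrophages, 6 lay above the mark in FULA 1 cells (Mrc1, Cd68, Lyz2, Fcgr1, Chil3 and Fabp4) and 6 below it (Csf1r, Ly6c2, Mpeg1, Marco, Adgre1 and Cd163), the last pair being below it on all 3 arrays. Ptprc was below the mark in the line too, and so, narrowly, was the adaptor Tyrobp, at rank 45.7 against a mark at 46.5. Tyrobp was 1 of the 12 companion genes listed for leukocytes in general. Of these, 6 lay above the mark in the line: Lcp1, Coro1a, Rac2, Cd53, Cd37 and Itgb2. Cd14 was higher in the line than in either lung. Pparg, a nuclear receptor that alveolar macrophages need and epithelial tumours can express, was the companion gene of alveolar macrophages that was at least 2-fold higher in the line, at ranks of 94.2 in FULA 1 cells, 76.7 in urethane lung and 60.1 in saline lung. Tyrobp and Pparg were named after their values were seen.

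Flt3 and Cpa3 could not be read. Flt3, a growth factor receptor of dendritic cells and progenitors, ranked 42.5 in FULA 1 cells, 17.0 in urethane lung and 34.6 in saline lung, and Cpa3, a protease of mast cells, ranked 7.92, 35.1 and 20.3. Of 7 companion genes of dendritic cells, 4 lay above the mark in FULA 1 cells, 3 in urethane lung and 1 in saline lung. The shares of all named genes were 58.2%, 48.9% and 49.5%. Against urethane lung, 1 of the 5 with an array above its mark was at least 2-fold lower in the line. Against saline lung it was 1 of 4. Batf3 and Zbtb46, transcription factors named after their values were seen, lay above the mark in FULA 1 cells alone. Batf3 ranked 57.0 in FULA 1 cells, 54.4 in urethane lung and 8.98 in saline lung. Zbtb46 ranked 52.6, 58.2 and 58.0, lower in the line than in either lung, whose marks lie at higher ranks. Cd209a, a lectin of dendritic cells and monocytes, ranked 65.3 in FULA 1 cells, 88.8 in urethane lung and 79.2 in saline lung, and Ccr7, the receptor that guides dendritic cells to lymph nodes, ranked 63.6, 65.8 and 49.4. Among 8 mast cell companions, 2 of the 2 with an array above its mark were at least 2-fold lower in FULA 1 cells than in urethane lung. Against saline lung it was 2 of 3. Hdc, which makes histamine, ranked 21.9, 77.1 and 84.7, and Gata2, a transcription factor of mast cells, progenitors and endothelium, ranked 65.8, 94.4 and 95.1.

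**Figure D3:**
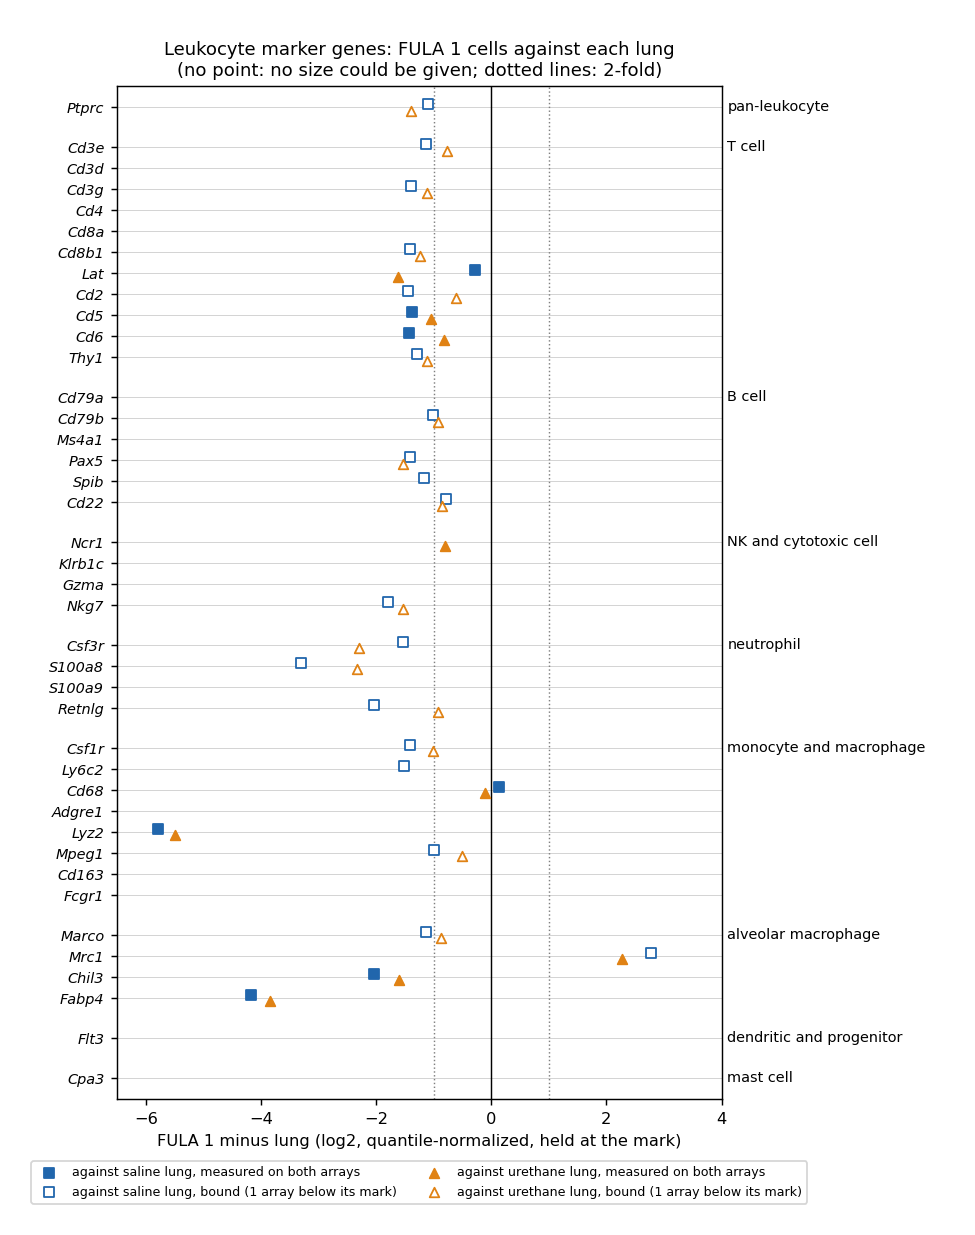
Difference in normalized log2 value, FULA 1 cells minus urethane lung (triangles) and minus saline lung (squares), for each of the 40 genes, filled where both arrays were above their mark and open where the difference is a bound. Lyz2, Fabp4 and S100a8 lie farthest to the left, at -5.79, -4.17 and -3.30 against saline lung, and Mrc1 alone lies past 2-fold on the right.

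Counted over the whole list, FULA 1 cells had 14 of the 26 genes that lay above the mark on at least 1 array at least 2-fold lower than urethane lung and 1 higher. The same count over all named genes above the mark on at least 1 array was 15.2% lower and 16.1% higher. Against saline lung it was 21 of 28 lower and 1 higher, where 17.1% of all named genes above a mark were lower and 16.6% higher. Median differences over all 40 genes, with values not held at the mark, were -1.04 against urethane lung and -1.24 against saline lung, beside -0.08 and -0.11 for all named genes. The line's rank was below the urethane lung's for 37 of the 40 genes (92.5%, against 54.1% of all genes) and below the saline lung's for 34 (85.0%, against 55.4%). Cd3d, Ncr1, Cd68, Fcgr1, Mrc1 and Flt3 were the 6 genes not ranked below both lungs. Both comparisons use the same FULA 1 array, so they are not independent of each other.

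Most of those sizes are lower bounds set by the background mark. Against saline lung, 7 differences were measured above the mark on both arrays, 19 were bounds, 2 had no size and 12 genes lay below the mark on both. The 12 genes that no array had above the mark were Cd3d, Cd4, Cd8a, Cd79a, Ms4a1, Klrb1c, Gzma, S100a9, Adgre1, Cd163, Flt3 and Cpa3, which include defining markers of helper and cytotoxic T cells, B cells and macrophages. Probe sets were also compared in 453 genes with exactly 2 of them, each above the mark in FULA 1 cells or saline lung. The differences of such a pair between FULA 1 cells and saline lung lay 0.95 apart at the median and 3.32 at the 95th percentile (log2). Of the 40 genes, 2 had a difference beyond that 95th percentile. The genes just inside and outside the mark in FULA 1 cells were Csf3r at 44.8, Csf1r at 45.8 and Thy1 at 46.2 below it, and Cd6 at 48.0, Fcgr1 at 48.4 and Fabp4 at 50.1 above it. Many lung values are also coarse. On each lung array 12 of the 40 genes had a deposited value held by 10 or more probe sets, against 5 in FULA 1 cells. In urethane lung these included Cd2 (639 probe sets), Cd79b (559), Cd8b1 (412), Pax5 (339) and Nkg7 (339). In saline lung they included Cd3e and Marco (250 each).

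Under 7 other settings, described in the closing section, a smaller set remained at least 2-fold lower in FULA 1 cells. These were Csf3r, S100a8, Lyz2, Chil3 and Fabp4 against urethane lung, and Nkg7, S100a8, Lyz2, Chil3 and Fabp4 against saline lung. Mrc1 remained higher in both comparisons. With the arrays only shifted to a common median, the lower genes numbered 8 against urethane lung and 11 against saline lung, and Cd68 joined Mrc1 among the higher ones. Markers of other lung cells also differed between the line and the lungs. Of 5 endothelial genes, 2 lay above the mark in FULA 1 cells and 5 in each lung, and of 5 fibroblast genes 3 and 5, where 58.2% of all named genes were above it in the line. In both lists 5 genes were at least 2-fold lower in FULA 1 cells than in urethane lung and 4 than in saline lung. Of 5 epithelial genes, all above the mark on every array, 3 were higher by that size in FULA 1 cells than in each lung, with 2 lower than in urethane lung and 1 lower than in saline lung. Culture, tumour origin and the cell mix of lung cannot be told apart in these arrays.

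Between the lungs, 3 of the 27 genes above the mark in at least 1 of them differed by 2-fold or more. Lat was higher in urethane lung (3.70% of the 27), and Retnlg and Ly6c2 were lower (7.41%). Among all named genes above the mark in at least 1 lung, 2.11% were higher and 0.789% lower by that size. The median difference over all 40 genes, with values not held at the mark, was -0.22, beside -0.06 for all named genes, and 27 of the 40 genes (67.5%) ranked lower in urethane lung, against 55.6% of all named genes.

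**Figure D4:**
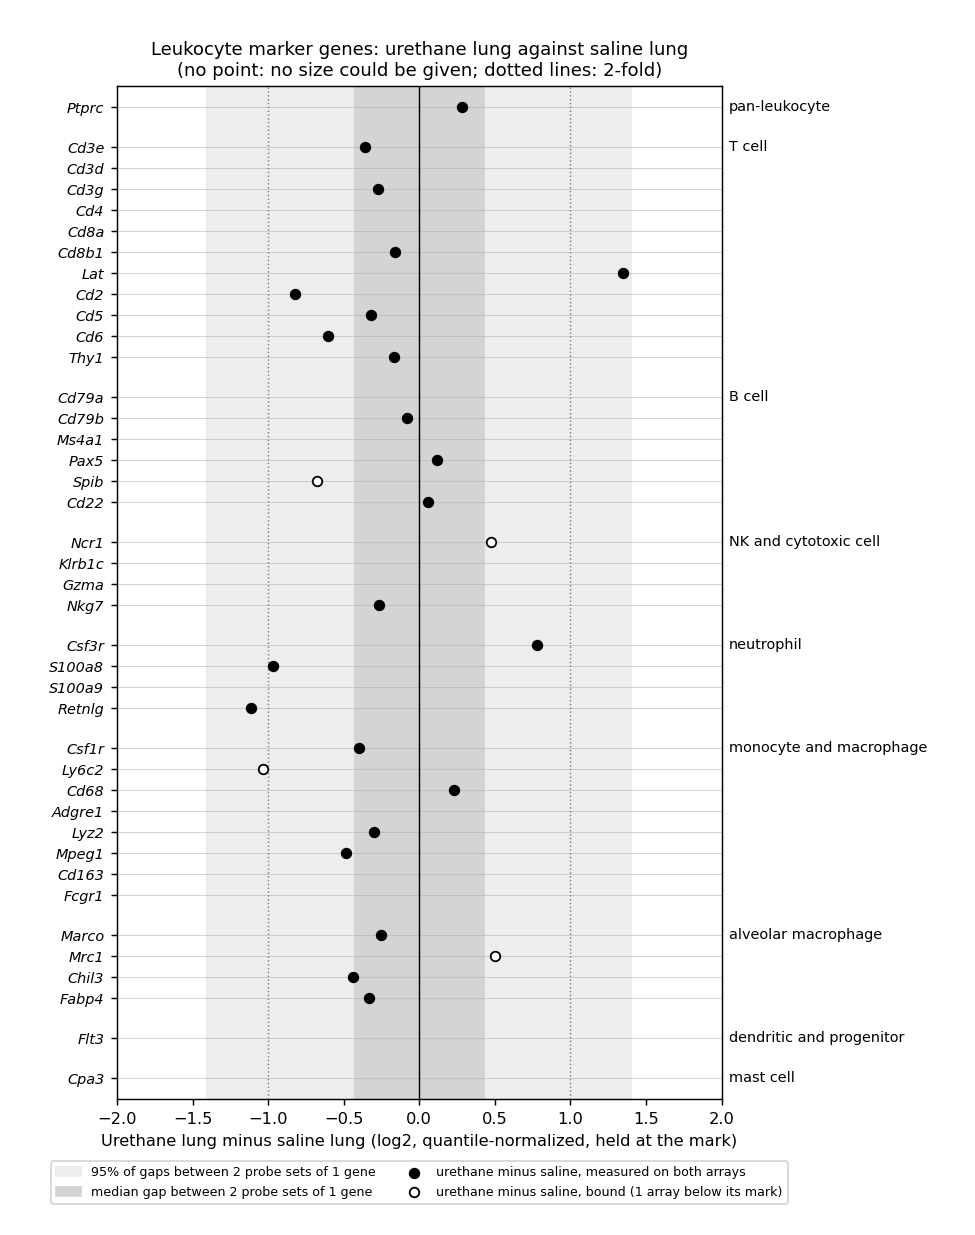
Difference in normalized log2 value, urethane lung minus saline lung, for each of the 40 genes, filled where both arrays were above their mark and open where it is a bound, over bands for the median (0.43) and the 95th percentile (1.40) of gaps between probe sets of 1 gene. Lat at 1.35, Retnlg at -1.11 and Ly6c2 at -1.03 lie past 2-fold, and no gene lies outside the wider band.

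Lat had normalized values of 4.01 in urethane lung and 2.66 in saline lung, a 2.55-fold difference. Other T cell genes did not go the same way. Cd3e, Cd3g, Cd8b1, Cd2, Cd5, Cd6 and Thy1 were all lower in urethane lung by less than 2-fold, with log2 differences of -0.36, -0.27, -0.16, -0.82, -0.32, -0.61 and -0.17 in that order. Lcp2, the partner of Lat in signalling, ranked 89.3 in urethane lung and 89.2 in saline lung. Of the 12 companion genes of T cell receptor signalling, 7 had lower values in urethane lung, counted without holding values at the mark. Some went the way of Lat by less: Skap1 was higher in urethane lung by 0.29 and Cd28 by at least 0.12. Skap1 and Cd28 were named after their values were seen. On the urethane array the deposited value of Lat was shared by 240 probe sets, so its level there is coarse.

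The myeloid genes split as well. Retnlg had 2.89 in urethane lung and 4.004 in saline lung, and S100a8 had 4.29 and 5.26, which is 2.16-fold and 1.96-fold lower. Csf3r went the other way, at 4.26 in urethane lung and 3.49 in saline lung, a 1.71-fold difference. The neutrophil genes therefore had no common direction between these arrays. Ly6c2 had 2.24 in urethane lung, below the mark, and 3.48 in saline lung, so it was at least 2.04-fold lower. Lyz2, Chil3, Fabp4 and Marco had log2 differences of -0.30, -0.44, -0.33 and -0.25, and Mrc1 was higher by at least 0.50 on that scale. Retnlg and Ly6c2 shared their urethane values with 559 and 834 probe sets. Neither reached 2-fold when the arrays were only brought to the same median (Retnlg -0.80, Ly6c2 -0.66) or when a lowess curve was subtracted (Retnlg -0.83, Ly6c2 -0.67). Lat was still past it in those settings, at 1.14 and 1.11, but differed by 0.53 with the mark at the 99th percentile of the receptors.

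Further blood genes and other cell types can be set beside these differences. Of 87 companion genes of the same cell types, 49 lay above the mark in at least 1 lung. Among these, Rac2 and Fcer1g were at least 2-fold lower in urethane lung, with log2 differences of -1.32 and -1.16. Mertk, a macrophage receptor for dying cells, was higher by 1.06. By that size, 0.789% of all named genes above the mark in at least 1 lung were lower and 2.11% higher. The 4 platelet genes had a median difference of -0.76. Pf4, named after its values were seen, differed by -1.15, and Gp9 ranked 42.3 in FULA 1 cells, 90.6 in urethane lung and 94.8 in saline lung. Ppbp ranked 98.5, 99.3 and 99.5, so its probe set read high in the cultured line too and does not mark blood here. Slc4a1, the red cell anion exchanger, was below the mark in both lungs. Endothelial markers differed by a median of -0.07 and fibroblast markers by 0.25. The part of blood content in the differences of Retnlg, S100a8 and Ly6c2 was not tested.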

How the data were processed

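RNA of 3 samples, 1 array each, was biotin-labelled for whole-transcript arrays, per the labels' protocols. Per probe set, the authors deposited a log2 value for each array, made with RMA, per the submitters' processing notes, and with GeneSpring GX 12.5, per the series' design text; the sources used here give no settings or annotation version. The columns were not on 1 scale, for a reason that is unknown here. Many values are tied, and not only the low ones. The most frequent value was shared by 112 probe sets in FULA 1 cells, 1277 in urethane lung and 934 in saline lung. Scanner files were not used here. The table had 0 columns from other samples.

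The 41345 probe sets were quantile-normalized to the mean of the 3 sorted columns (Python 3.11.15, numpy 2.4.6, pandas 2.3.3). Platform annotation gave 23521 probe sets 1 symbol, 1814 several and 16010 none; symbols were updated by Entrez identifier for 23328 through the RefSeq table of GRCm38.p6. A gene was the mean of its probe sets. Genes were called at a difference of 2-fold with values held at the background mark, without p-values, since each group has 1 array; the number of arrays limits the precision. Shares of all genes at least 2-fold lower or higher are over genes above the mark on at least 1 of the arrays compared. Shares above the mark and shares ranked lower are over all 22180 named genes, unless another number is given. Calculations were tested on simulated data without tied values, with differences planted in genes well above the mark. Bounds near the mark were not tested in that way. Alternatives are in the closing section. The 40 genes, the companion lists and the rules were chosen with earlier results of these data known. All 40 genes were named, with the 2 genes of highest mean rank in each companion list and in each list of another cell type; not every one is printed. Of the list genes, 18 were not analysed here. Sequence windows are RefSeq's.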

Additional observations from a re-analysis of the deposited data

How the results depend on the processing

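No paired analysis was possible because each group has 1 array, and no replicate could be left out. With the mark at the 90th percentile of the receptors, 19 of the 40 genes lay above it in FULA 1 cells; at the 99th, 2 did in FULA 1 cells, 9 in urethane lung and 8 in saline lung. FULA 1 cells had 14 genes lower than urethane lung; this became 8 with a common median, 22 with the FULA 1 quantiles as target, 6 with the 99th-percentile mark, 22 at 1.5-fold and 4 at 4-fold. Against saline lung 21 became 11 with a common median, 11 with a lowess curve (span 0.3) subtracted, 7 with the 99th-percentile mark and 5 at 4-fold. The 1 higher gene became 2 with a common median in each comparison. Between the lungs, the 2 lower genes became 1 with a common median, 4 with the FULA 1 quantiles, 6 at 1.5-fold and 0 with lowess, the 99th-percentile mark or 4-fold; the 1 higher gene became 2 with values not held at the mark or at 1.5-fold and 0 with the 99th-percentile mark or 4-fold.

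Values as deposited, whose columns differ in scale, turned directions. All genes then had medians of 3.69 (FULA 1 minus urethane lung), 4.80 (FULA 1 minus saline lung) and 1.09 (urethane minus saline lung), and the 40 genes 2.56, 3.77 and 1.05, so that 0 genes were lower in any comparison and 8, 9 and 15 were higher. The sign turned for 7 genes against urethane lung, 5 against saline lung and 17 between the lungs. Among them, the genes at least 2-fold apart before were Lat (2.82), Cd5 (3.24), Chil3 (2.55) and Fabp4 (0.54) against urethane lung, Cd5 (4.25), Cd6 (3.90), Chil3 (3.44) and Fabp4 (1.01) against saline lung, and Retnlg (0.34) between the lungs. Percentile ranks, which no scaling of this kind changes, kept the order given in the report. The 7 settings named there are a common median, FULA 1 quantiles, lowess, both marks, values not held and the highest probe set of a gene. The last could not change the value of any of the 40 genes, since each has 1 probe set. Under all 7, no gene stayed past 2-fold between the lungs. Low and tied values limit what the lung arrays resolve. The cause of these changes was not tested.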
